A study of Mus musculus with 2 samples.

Results

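Runx1 was mapped in mouse thymocytes of the CD4+ CD8+ stage (double-positive or DP cells) by chromatin immunoprecipitation and sequencing, and the peaks described here are those that lay inside protein-coding genes and away from their promoters. A peak was counted as a gene-body peak when its centre was more than 5 kb from every transcription start site (TSS) of a protein-coding transcript and between the start and the end of a protein-coding gene, exons and introns included. Of the 3531 Runx1 peaks, 1015 met this rule, or 28.7% (exact Clopper-Pearson 95% confidence interval 27.3 to 30.3%). A further 999 peaks were TSS-proximal and 1517 were intergenic.

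The DP cells were isolated from the thymus of C57BL/6 mice on an Automacs instrument, and no genotype or number of mice is given in the labels. The methods of the study put the age of its mice at 4 to 6 weeks. Chromatin was precipitated with an anti-Runx1 antibody to make 1 Runx1 ChIP library, while 1 input library was made with no antibody. Both were sequenced on SOLiD instruments after 15 PCR cycles, and the labels and the methods of the study give different catalogue numbers for the antibody. The study used the Runx1 peaks to ask whether lymphoid factors lie at promoters with long antisense transcripts, within 5 kb of a TSS. Peaks within genes and farther from its TSSs were outside that question.

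RUNX factors bind DNA through the Runt domain, as heterodimers with Cbfb, at a short site whose core reads TGTGGT on one strand and ACCACA on the other. In thymocytes Runx1 takes part in the silencing and activation of the co-receptor genes and in T-lineage commitment, often at elements that hold Ets and E protein sites as well. Such elements can lie within introns, of the gene they control or of a neighbour, so that the host gene of a peak is a position and not a target.

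Peaks with high scores that hold the RUNX word are shown first, and after them peaks that lack it. All sequences were read from NCBIM37 (mm9). The gene-body peak with the highest score lay in Ptch1, and a pair of peaks with equal scores lay in Ccr9. They are given whole, on the plus strand, with each RUNX word in capitals (TGTGGT, or ACCACA where the word is on the minus strand).
Ptch1, score 82, chr13:63629733-63629919: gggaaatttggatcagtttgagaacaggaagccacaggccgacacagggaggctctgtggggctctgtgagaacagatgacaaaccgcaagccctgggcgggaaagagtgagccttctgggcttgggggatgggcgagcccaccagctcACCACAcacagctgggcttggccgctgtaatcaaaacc
Ccr9, score 51, chr9:123663566-123663752: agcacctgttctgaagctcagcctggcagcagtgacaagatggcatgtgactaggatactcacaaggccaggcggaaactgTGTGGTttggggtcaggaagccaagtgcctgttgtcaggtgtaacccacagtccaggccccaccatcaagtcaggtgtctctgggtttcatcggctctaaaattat
Ccr9, score 51, chr9:123665949-123666135: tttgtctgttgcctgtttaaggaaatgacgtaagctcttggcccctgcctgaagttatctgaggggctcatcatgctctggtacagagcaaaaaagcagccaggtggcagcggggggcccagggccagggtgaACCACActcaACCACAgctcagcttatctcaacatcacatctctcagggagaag
The next peaks are given as the RUNX word closest to the centre with 25 bases on each side, 5′ to 3′ on the strand of the word, and were chosen as strong peaks of named hosts. The word in capitals is the same in each, while the flanking bases differ.
Ppp1r16b, score 77, chr2:158545121-158545176, plus strand: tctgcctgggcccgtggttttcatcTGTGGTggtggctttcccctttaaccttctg
Msh4, score 66, chr3:153558627-153558682, minus strand: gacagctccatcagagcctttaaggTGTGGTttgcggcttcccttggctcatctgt
Ccnd3, score 49, chr17:47679111-47679166, minus strand: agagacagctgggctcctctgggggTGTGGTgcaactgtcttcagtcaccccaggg
Lef1, score 47, chr3:130911557-130911612, plus strand: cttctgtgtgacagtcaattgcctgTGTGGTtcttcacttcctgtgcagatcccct
Lcp2, score 40, chr11:33964208-33964263, plus strand: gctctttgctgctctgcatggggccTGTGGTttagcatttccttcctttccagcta
Smarca2, score 35, chr19:26720773-26720828, plus strand: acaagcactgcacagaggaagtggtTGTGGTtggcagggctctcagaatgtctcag
Ptprc, score 30, chr1:140033072-140033127, plus strand: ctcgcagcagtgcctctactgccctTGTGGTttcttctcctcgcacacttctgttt
Cd247, score 26, chr1:167775627-167775682, minus strand: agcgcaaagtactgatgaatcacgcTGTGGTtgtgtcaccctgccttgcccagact
Finally, the strongest peak with no TGTGGT lay in Amph, and its Ets words (AGGAAG, or CTTCCT on the minus strand) are in capitals. The stronger of the peaks in Runx1 itself also had no TGTGGT, and its TGCGGT is in capitals. Both are on the plus strand.
Amph, score 80, chr13:19090535-19090721: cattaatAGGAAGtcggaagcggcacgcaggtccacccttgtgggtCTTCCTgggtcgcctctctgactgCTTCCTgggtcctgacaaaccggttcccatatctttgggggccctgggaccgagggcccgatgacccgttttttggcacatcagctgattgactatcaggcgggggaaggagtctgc
Runx1, score 35, chr16:92801971-92802157: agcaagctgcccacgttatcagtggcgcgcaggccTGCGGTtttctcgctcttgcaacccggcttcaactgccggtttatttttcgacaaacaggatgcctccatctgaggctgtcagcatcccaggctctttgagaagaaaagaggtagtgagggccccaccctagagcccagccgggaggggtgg

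Gene bodies beyond 5 kb of a coding TSS made up 32.5% of the known bases of the genome (832 Mb) and held 1.22 Runx1 peaks per Mb. TSS-proximal sequence held 3.91 per Mb and intergenic sequence 1.03 per Mb. In the input list, 96 of 740 peaks were in gene bodies, or 13.0% (10.6 to 15.6%), which was 0.115 per Mb. The share of Runx1 peaks, 28.7%, was thus below that of the bases, and 78.1% of the input peaks were intergenic. These shares are given as a description without a test, since position in a gene body is what the rule used. An input peak overlapped 7 of the 1015 gene-body peaks, or 0.69%. Chromosomes X and Y held 11.5% of the input gene-body peaks and 0.985% of the Runx1 gene-body peaks. With a single library of each kind there is no replicate error, and the p-values that follow describe peaks of single libraries. The files hold no read counts, so that the depth of either library is unknown and the intervals cover counting error over peaks only.

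The scores of the gene-body peaks ran from 14 to 82, with a median of 18 and quartiles of 16 and 23. The score is the authors' value per peak, whose meaning the files do not name, and many peaks share a value. A score above 18, the median of all Runx1 peaks, was taken as high. It was found in 336 gene-body peaks, or 33.1% (30.2 to 36.1%), as compared with 43.3% of intergenic peaks (odds ratio 0.648, Fisher's exact test, two-sided here and below, adjusted p = 5.1e-07) and 37.4% of TSS-proximal peaks (odds ratio 0.827, adjusted p = 0.045). The first difference was also seen in peaks whose 32 central bases occur once in the genome (odds ratio 0.707, adjusted p = 0.00033 in the same exact test). Centres present more than once made up 6.8% of gene-body, 21.2% of intergenic and 2.3% of TSS-proximal peaks. The second difference was lost with the upper quartile of the score as the threshold (odds ratio 0.974, adjusted p = 0.82 in the same exact test) and with each of the other definitions of the TSS tried.

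The RUNX word TGTGGT, searched on both strands within 100 bp of the centre on either side, was present in 317 of the 1015 gene-body peaks, or 31.2% (28.4 to 34.2%). In windows of the same width centred 1 kb downstream on the plus strand it was present for 170 peaks, or 16.7% (14.5 to 19.2%). The word was at the centre alone in 261 peaks and in the flank alone in 114, a difference of 14.5 percentage points (exact McNemar test, two-sided, p = 2.2e-14). The same letters read backwards, TGGTGT, gave 13.0% at the centre and 12.7% in the flank (exact McNemar test, adjusted p = 0.91 over the 14 words searched). In the input gene-body peaks the RUNX word was present at 13.5% of centres (7.41 to 22.0%) and 11.5% of flanks (5.86 to 19.6%). G and C made up 53.7% ± 4.18 (SD, n = 1015) of the bases at the gene-body centres, against a mean of 46.9% in the flanks and 44.5% at the input centres. The word read backwards has the same composition as the RUNX word, and the part of base composition in the other comparisons was not tested.

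**Figure D1:**
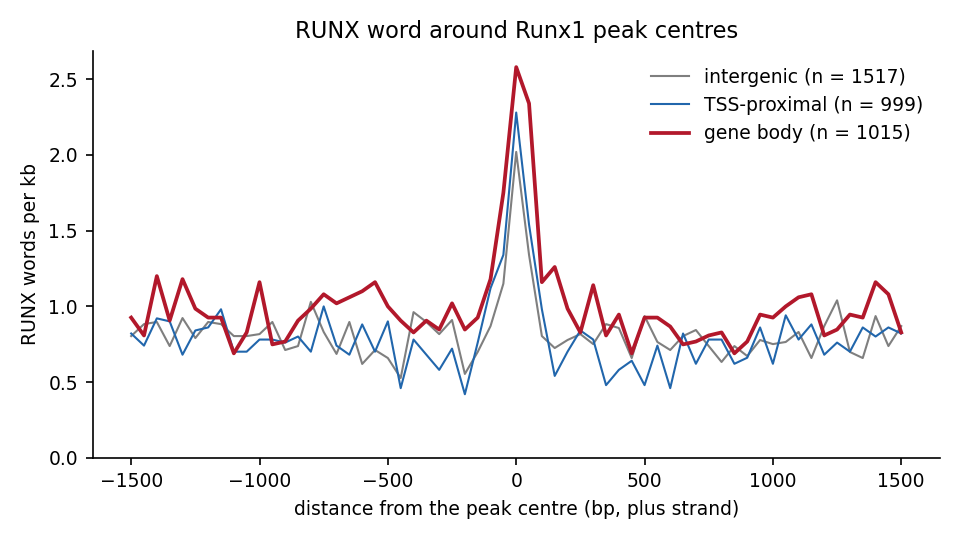
RUNX words (TGTGGT on either strand) per kb in bins of 50 bp, against the distance from the peak centre in bp on the plus strand, for gene-body (red, n = 1015), TSS-proximal (blue, n = 999) and intergenic (grey, n = 1517) Runx1 peaks. The gene-body line reaches 2.58 words per kb at the centre and is at 0.847 and 0.985 words per kb 200 bp to either side.

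The word was concentrated at the centre. Of the 401 words in the 1015 windows, 61.8% had their middle within 50 bp of the peak centre, and the median distance was 39 bp. A single word was found in 250 peaks, 2 in 57 and 3 or more in 10, with 6 as the highest number. Neighbouring words of the same peak were a median of 40.5 bp apart. The base after the word was T in 172 of 401 words at the centres, or 42.9%, and in 44 of 186 in the flanks, or 23.7% (odds ratio 2.42, Fisher's exact test, p = 6.0e-06). This longer form, TGTGGTT, belongs to the known RUNX consensus, and it appears in the Ccr9, Msh4, Lef1, Lcp2, Smarca2, Ptprc and Cd247 sequences above. It was present in 15.3% of centres and 4.14% of flanks. TGCGGT, in which the third base of the word is C, was present in 7.78% of centres and 1.28% of flanks, and either form in 370 peaks (36.5%).

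Gene-body peaks were compared with the other Runx1 peaks for the same word. It was more frequent than at intergenic peaks, of which 23.1% held it (odds ratio 1.51, Fisher's exact test, adjusted p = 1.3e-05 over 2 comparisons), and it remained so among peaks whose centre occurs once in the genome (odds ratio 1.33, exact adjusted p = 0.0062). However, the word read backwards also differed between these classes, with 13.0% against 10.2% (odds ratio 1.32, Fisher's exact test, p = 0.029), and the flanks of the intergenic peaks held TGTGGT in 13.6%. The comparison with TSS-proximal peaks depended on the form of the word, the TSS definition and the peaks that share a host. TGTGGT alone was more frequent in gene bodies, with 31.2% against 26.8% (odds ratio 1.24, Fisher's exact test, adjusted p = 0.031). TGCGGT was less frequent there, with 7.78% against 17.5% (odds ratio 0.397, exact p = 4.6e-11), and when either form counted the direction turned (odds ratio 0.824, exact adjusted p = 0.035). With TGTGGT alone the difference was not past the threshold at a TSS distance of 10000 bp (odds ratio 1.18, exact adjusted p = 0.087), with the TSSs of all transcripts (1.14, p = 0.2) or with 1 peak per host (1.13, p = 0.25). TSS-proximal centres had a mean of 57.2% of G or C.

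Within the gene-body set, the word went with the score. It was present in 142 of the 336 peaks with a high score, or 42.3% (36.9 to 47.7%), and in 175 of the other 679, or 25.8% (22.5 to 29.2%), for an odds ratio of 2.11 (p = 1.4e-07, Fisher's exact test). The word read backwards was at 12.8% and 13.1%, respectively (p = 0.92 in the same exact test). By range of score the RUNX word was present in 23.6% of peaks at 14 to 16, 38.8% at 21 to 23, 46.2% at 26 to 30, 40.3% at 33 to 47 and 54.2% at 49 or more, where there were 24 peaks. Repeated centres also became more frequent with the score, from 3.57% at 14 to 16 to 16.7% at 49 or more, and only 6 of the 69 gene-body peaks with such a centre held the word. Without them the odds ratio was 2.51 (p = 4.3e-10 in the same exact test).

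**Figure D2:**
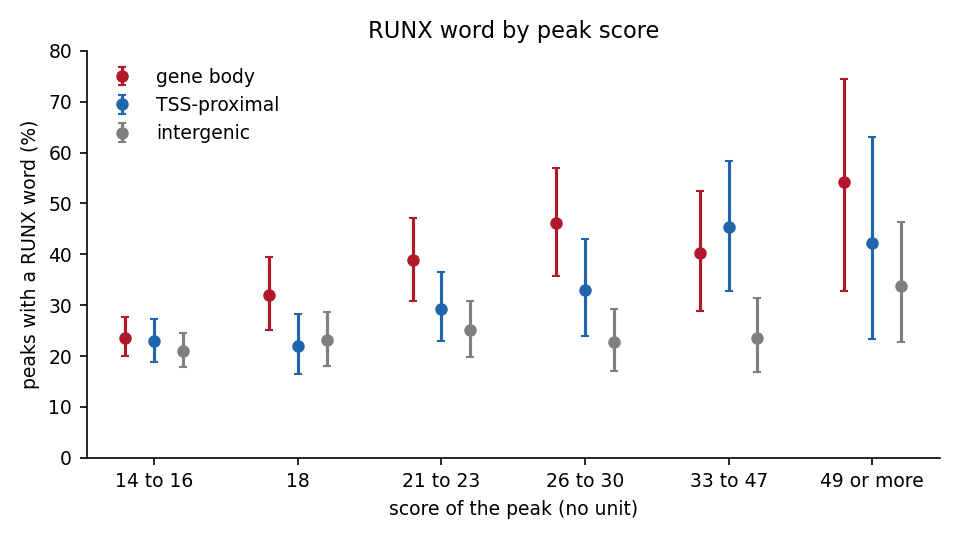
Share of peaks with a RUNX word (%) by the score of the peak (no unit), for gene-body (red), TSS-proximal (blue) and intergenic (grey) Runx1 peaks. Points are shares and bars exact 95% intervals, and the gene-body share goes from 23.6% in the lowest range to 54.2% in the highest, where the interval is wide (32.8 to 74.4%).

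Other words were searched in the same windows. Factors of the Ets family bind around GGAA, and E proteins such as E2A and HEB bind E-boxes, so both are common partners at thymocyte elements. The Ets word AGGAAG was present in 38.0% of gene-body centres and 23.3% of flanks (exact McNemar test, adjusted p = 2.4e-12), and the form frequent at promoters, CCGGAA, in 6.4% and 3.05% (exact adjusted p = 0.001). The palindromic E-box CAGCTG was present in 25.2% of centres and 10.0% of flanks (exact adjusted p = 3.9e-18), which made it the word with the largest difference, 15.2 percentage points. The E-box CAGGTG was at 31.0%, or 13.0 percentage points above the flanks (exact adjusted p = 2.3e-11). Together with the 3 RUNX forms, of which TGTGGTT contains TGTGGT, 7 of the 14 words were more frequent at the centre.

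Of the remaining 7 words, 2 were less frequent at the centre. The GATA word AGATAA was at 6.4% of centres and 11.0% of flanks (adjusted p = 0.00029 in the exact McNemar test), and the MYB word TAACTG was at 7.19% and 10.0% (adjusted p = 0.042, which was 0.48 among the peaks with a high score). Both words are rich in A and T, and the flanks held more of these bases than the centres, as given above. The TCF/LEF word is as rich in them as the MYB word and was not lower at the centre. In turn, the promoter form of the Ets word and both E-boxes, which were higher at the centre, are rich in G and C. Only the RUNX word was also searched read backwards. The part of base composition in the differences of the Ets, E-box, GATA and MYB words was not tested. MYB also missed the threshold with the flank 1 kb upstream (exact adjusted p = 0.091) and a TSS distance of 2500 bp (0.094). The words of TCF/LEF (CTTTGA), Ikaros (TGGGAA), AP-1 (TGANTCA) and ROR (AGGTCA) showed no difference past the threshold against the downstream flank, with 15.6%, 16.7%, 4.93% and 11.2% at the centres against 13.4%, 16.5%, 6.11% and 13.0% in the flanks. However, ROR was lower at the centre among peaks with a high score (exact McNemar test, adjusted p = 0.0089), and ROR and Ikaros were both lower against the flank 1 kb upstream (exact adjusted p = 0.022 for each). In peaks with the RUNX word, the Ets word was at 44.2%, CAGCTG at 32.5% and CAGGTG at 37.5%, whereas in the 698 peaks without it they were at 35.2%, 21.9% and 28.1%, values that are given without a test.

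**Figure D3:**
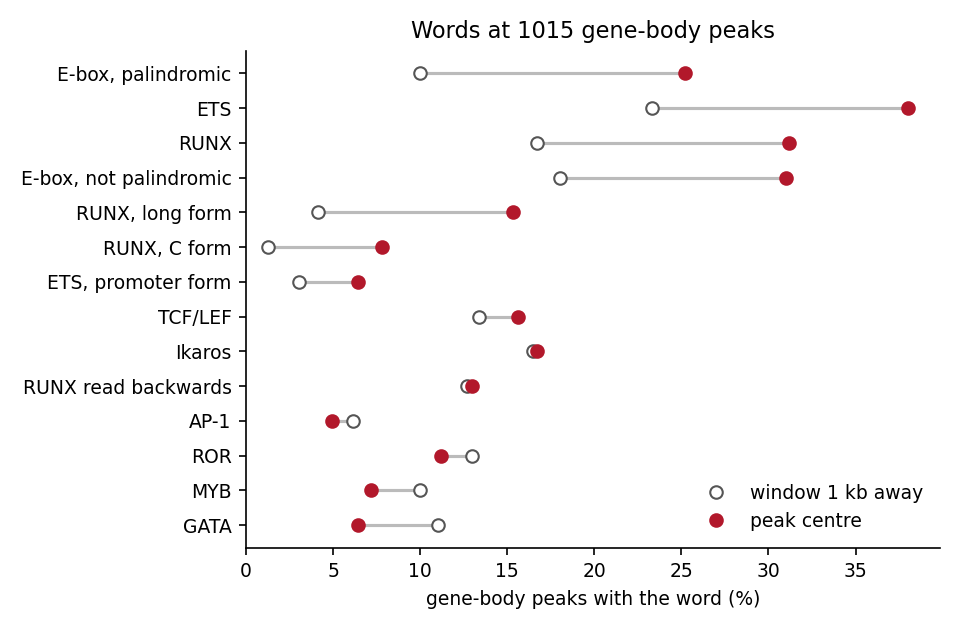
Share of the 1015 gene-body peaks (%) with each of 14 words within 100 bp of the peak centre (red) and in the same width 1 kb away (open circles), ordered by the difference. The palindromic E-box has the largest difference (25.2% against 10.0%) and GATA the largest in the other direction (6.4% against 11.0%).

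Most gene-body peaks lay in introns, and their distance from coding TSSs was set in part by the rule. Their centre was in an exon of a coding transcript of the host in 91 cases, or 8.97% (7.28 to 10.9%), as compared with 1 of 96 input gene-body peaks. The median distance to the nearest coding TSS was 24606 bp, the lowest being 5009 and the highest 800465 bp. A distance of 5 to 10 kb was found for 195 peaks, 10 to 50 kb for 540 and over 50 kb for 280, and the RUNX word was present in 30.8%, 33.1% and 27.9% of these. In the longest coding transcript, 229 centres were in the first intron (22.6%) and 140 in the second (13.8%). The shares of open bases in exons and in these introns are not given here, so that these values describe the peaks alone. Of the input gene-body peaks, 29.2% were in a first intron, which was not a detectable difference (odds ratio 0.708, Fisher's exact test, p = 0.16). Within 5 kb of a gene-body centre there was a TSS of another transcript of a protein-coding gene in 135 cases and of a gene of another type in 63, so that some of these peaks are near annotated starts that the rule does not count.

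Along the gene, divided into 5 equal parts from the 5′ end, the first part held 129 peaks, or 12.7% (10.7 to 14.9%), and the next parts 20.1%, 20.9%, 24.0% and 22.3%. The bases open to the rule were at 15.1%, 20.4%, 21.2%, 21.6% and 21.7%. The value for the first part lay just above the interval of the peaks. The sequence before the midpoint of the host held 43.3% of the Runx1 and 46.9% of the input gene-body peaks (odds ratio 0.864, Fisher's exact test, p = 0.52). The median score was between 16 and 18 in all 5 parts, and the RUNX word was present in 27.9 to 34.9% of peaks.

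**Figure D4:**
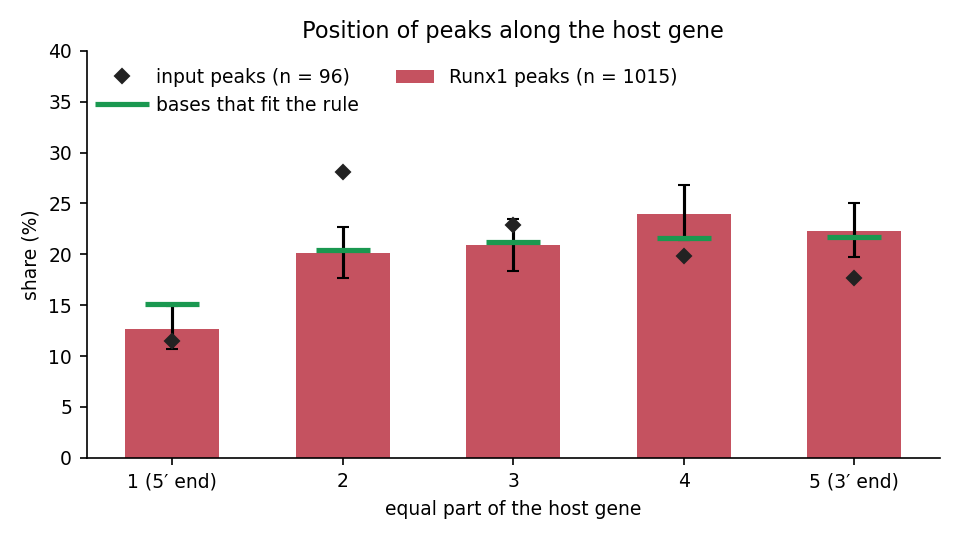
Share (%) of gene-body peaks in 5 equal parts of the host gene from the 5′ end, for 1015 Runx1 peaks (bars, with exact 95% intervals), 96 input peaks (diamonds) and the bases open to the rule (green lines). The first part is the lowest in all 3, at 12.7%, 11.5% and 15.1%.

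The word lay on the strand of the host gene more often than on the other. Of 244 peaks with a single word and hosts on 1 strand, 150 had it on the strand of the host, or 61.5% (55.1 to 67.6%; p = 0.00041 in a two-sided exact binomial test with both strands equally likely). The flanks 1 kb away on both sides showed the same, with 179 of 280 single words, or 63.9%, and the centres did not differ from them detectably (odds ratio 0.9, Fisher's exact test, p = 0.59). The orientation was thus measured in the surrounding gene as well as at the peaks.

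The 1015 peaks were placed in 885 host genes, or 5.69% of the 15565 protein-coding genes that have bases open to the rule. Hosts were long, with a median of 95.5 kb as compared with 27.9 kb for all these genes. By quartile of open bases the share of hosts was 0.951%, 2.31%, 5.09% and 14.4%, while the peaks per Mb of open bases were 3.16, 1.86, 1.65 and 1.07. A TSS-proximal Runx1 peak was found for 64 hosts, or 7.23% (5.61 to 9.14%), and for 5.5% (5.13 to 5.88%) of the genes with no gene-body peak. For 27 centres the annotation holds 2 or more genes, and each of them counted as a host.

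Several peaks were found in 119 hosts, or 0.765% of the genes tested. Of these, 99 held 2 peaks, 14 held 3, 4 held 4, 1 held 5 and 1 held 16. The last is Gm20388, a model of 4430 kb on chromosome 8 that spans many other genes, and Fgfr2, among those with 4, is annotated with a span of 3010 kb. When models above 2.5 Mb were left out, 117 hosts with several peaks were counted. Among the other hosts, Ldlrad3 (236 kb, for a membrane protein with a lipoprotein receptor domain) had 5 peaks with scores of 35, 18, 16, 21 and 26 in order of position, 4 of them with the RUNX word. Sema4d (92.5 kb), which encodes a semaphorin of lymphocytes, had 4 peaks with scores of 16 to 18, and Ppm1h (267 kb), a phosphatase gene, had 4 with scores of 16 to 28. In each of these last hosts, 2 of the peaks held the word. Cntn5 (1240 kb), a neural adhesion gene, also had 4 peaks, yet none held the word, 2 had a repeated centre of 98 and 1451 copies, and an input peak overlapped the strongest (score 42). Of the hosts with 3 peaks, those with the highest scores were Ccnd3 (49), Lef1 (47), Ftsjd2 and the overlapping Rnf8 (the same peaks, 30), Ppp2r5c (30), Cd247 (26), Ankrd44, Camk1d and Helz (23 each).

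Neighbouring peaks of the same host were a median of 31.4 kb apart, and of 154 such pairs 6 were within 1 kb, 22 within 5 kb and 42 within 10 kb. The closest pair, 545 bp apart, was in Rptor, a gene named here after its value was seen. Peaks of hosts with several had a high score in 113 of 270 cases, or 41.9%, as compared with 29.9% of the 745 peaks that were alone in their host (odds ratio 1.68, Fisher's exact test, p = 0.0005). The RUNX word was in 38.5% and 28.6% of them, respectively (odds ratio 1.56, p = 0.0035 in the same exact test). Peaks of the same host are not independent, and with 1 peak per host the difference in the word was no longer past the threshold (odds ratio 1.27, exact p = 0.27), while that in score was (odds ratio 1.59, exact p = 0.024). Among peaks with a high score the word was in 55 of 113 peaks of hosts with several (48.7%) and 87 of 223 that were alone (39.0%; odds ratio 1.48, exact p = 0.1), and among the others in 31.2% and 24.1% (odds ratio 1.43, exact p = 0.078), neither past the threshold.

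The 10 hosts with the highest scores were of mixed function. Ptch1, the receptor of Hedgehog ligands, had a score of 82 in intron 15, 14201 bp upstream of the nearest coding TSS, which is an internal one of the same gene. Besides TGTGGT its window held 1 TGCGGT, 1 Ets word and 1 E-box. Smo, which transduces the Hedgehog signal, had a score of 70 in its first intron, but the centre of this peak occurs 9 times in the genome and has no RUNX word. Ppp1r16b, a regulatory subunit of protein phosphatase 1, had a score of 77 with 2 RUNX words and a weaker peak (26) at a distance of 3.81 kb, both in intron 3.

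Of these 10 hosts, 3 had the RUNX word at their strongest peak. The third was Msh4, which acts in meiotic recombination, with a score of 66 and 2 words. Amph (amphiphysin, of endocytosis) at 80, Gria4 (a glutamate receptor subunit) at 68, Csda (a Y-box DNA-binding protein) at 66 and Vmn2r60 (a vomeronasal receptor) at 59 had none, although Amph and Gria4 each had 3 Ets words and Vmn2r60 had 2. The centres of these 5 peaks occur once. Tcte2 at 66 and Golga3 at 59 had no word either, with centres in 2 and 1486 copies, and the Golga3 peak was overlapped by an input peak. At the limit of the rule, the members closest to a TSS were in Fam55b (5009 bp, score 16), Ssbp3 (5018 bp, score 16) and Csk (5025 bp, score 42), and peaks just left out were in Ldlrad3 (4966 bp, score 16) and 2610034B18Rik (4962 bp, score 16).

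Genes of T-cell development and signalling were looked up as hosts in 10 lists with 200 symbols. These include 38 chromatin regulators and 24 survival and cell cycle genes, and all are called T-cell genes here. Of the 200 symbols, 198 were annotated as protein-coding and 173 had bases open to the rule. Hosts among them were 35, or 20.2% (14.5 to 27.0%), against the background of 5.69% over all genes. These genes are longer than average, with a median of 54.7 kb of open bases against 19.7 kb, so the same counts were taken by length. In the quartiles of open bases, 5.0%, 11.1%, 15.8% and 28.4% of the T-cell genes were hosts (1 of 20, 3 of 27, 6 of 38 and 25 of 88), each above the share of all genes in that quartile given before. The interval for the longest quartile was 19.3 to 39.0% against 14.4%, and for the shortest 0.127 to 24.9% against 0.951%. Single lists hold few genes, and their counts below were not tested. The lists were drawn up with results on these peaks known and are no independent evidence. None of 28 B-cell, myeloid and thymic stromal genes was a host, or 0% (exact interval 0 to 12.3%), and 3 genes, the limit used here for a count of 0, would be 10.7%. These genes had a median of 22.6 kb of open bases, in the quartile in which 5.09% of all genes were hosts, a share that lies within this interval. Of 24 long neuronal genes (median 1100 kb of open bases, in the quartile with 14.4%) 6 were hosts. Among these, Dlg2, Cntnap2, Dcc and Sox5 had single peaks with scores of 16 to 26, and Cntn5 was described above.

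Among transcription factors, Runx1 was the sole host among 7 genes of RUNX factors and their partners (14.3%). It held a peak with a score of 35 at 24.2 kb and one with a score of 16 at 58.6 kb from its start, both in intron 2 and neither with TGTGGT. Of 15 Ikaros and Ets factors, 2 were hosts (13.3%). Fli1 was host to 3 peaks (scores 16, 16 and 18, of which 2 held the word) and Ets1 to 1 (score 16, with the word). None of the 3 E protein and Id genes with open bases was a host (0%). Of 21 T-lineage factors, Lef1, Bcl11b, Zbtb16 and Rora were hosts (19.0%). In the RUNX, Ikaros and Ets, E protein and Id, and T-lineage lists, the medians of open bases ran from 67.7 to 243 kb. All were in the quartile with 14.4% hosts among all genes. Lef1, an HMG-box factor of early T-cell development, had peaks of 16, 21 and 47 in order along the gene, and the stronger 2 held the word. The peak of 47 was in intron 11, with 2 Ets words beside the RUNX word. Bcl11b, which is required for T-lineage commitment, had peaks of 21 and 21 in intron 3, neither with the word, and Zbtb16, the factor of innate-like T cells, had 1 of 16 without it. Rora, a nuclear receptor, had peaks of 16 and 30 in its first intron, both with the word.

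The signalling genes were next. Cd247, which encodes the zeta chain of the T-cell receptor complex, was host to 3 peaks of 18, 16 and 26, all in intron 1. None of the 8 other genes with open bases in the list of co-receptor, receptor complex and receptor recombination genes was a host. The median of 5.85 kb of open bases in this list was in the quartile with 0.951% hosts among all genes. Cd247 itself had 83.5 kb, in the quartile with 14.4%. Of 33 genes of T-cell receptor signalling, 9 were hosts (27.3%), and their median of 42.8 kb of open bases was in the quartile with 5.09% hosts. The adaptor gene Lcp2 (SLP-76) had a score of 40 in intron 3, with the word and 2 Ets words. Csk, the kinase that restrains Lck, had a score of 42 in intron 1 with TGCGGT and no TGTGGT. Ptprc (CD45) had 2 peaks in intron 2, of 30 and 21, both with the word. Prkcq, Cd6, Dgkz and Arhgef6 had single peaks of 16 to 18, and among these 4 the word was present in that of Arhgef6 alone.

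Notch pathway genes were hosts in 3 of 11 cases, with a median of 82.7 kb of open bases, in the quartile with 14.4% hosts among all genes. Notch1 itself had a peak of 26 in exon 24, with TGCGGT and no TGTGGT, Dtx1 (an E3 ligase and Notch target) had 1 of 21, and Maml3 (a Notch co-activator) had 2 of 18. None of the peaks in Dtx1 and Maml3 held TGTGGT. Of 23 cytokine, chemokine and adhesion receptor genes, Il6ra, Tgfbr2, Ccr7, Ccr9 and Cxcr5 were hosts, and the median of 25.1 kb was in the quartile with 5.09%. Ccr9, the receptor that responds to Ccl25 in the thymus and gut, had the strongest of these, the pair of 51 shown above. Their centres were 2383 bp apart and 12670 and 10287 bp upstream of the nearest coding TSS of Ccr9, inside the first intron of a longer annotated transcript, and they held 1 and 2 RUNX words. Il6ra had peaks of 21 and 26 near its 3′ end, 1342 bp apart, without the word. Tgfbr2, Ccr7 and Cxcr5 each had 1 peak of 18 with it.

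Survival and cell cycle genes were hosts in 3 of 14 cases, with a median of 25.9 kb of open bases, in the quartile with 5.09% hosts. Ccnd3, the D cyclin that DP precursors need for expansion after β-selection, had 3 peaks of 26, 40 and 49 along its first intron, within 20.5 kb, and a TSS-proximal peak in addition. The strongest held TGTGGT and the weakest TGCGGT, and all 3 held 2 E-boxes. Bcl2l1 (Bcl-xL), which supports DP survival, had peaks of 21 and 16 in intron 2, and Bcl2l11 (Bim), which opposes it, had 1 of 16 in intron 3. Of 37 chromatin regulators, 7 were hosts to 1 peak each, or 18.9%, near the 14.4% of all genes in the quartile of their median (65.7 kb of open bases). Smarca2, an ATPase of the BAF complex, had the strongest (35, intron 5, with the word), and Tet3, a 5-methylcytosine oxidase, followed with 23. Arid1b, Kdm2b, Bptf and Jarid2 had 16 to 18, and among these the word was present in Arid1b alone.

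**Figure D5:**
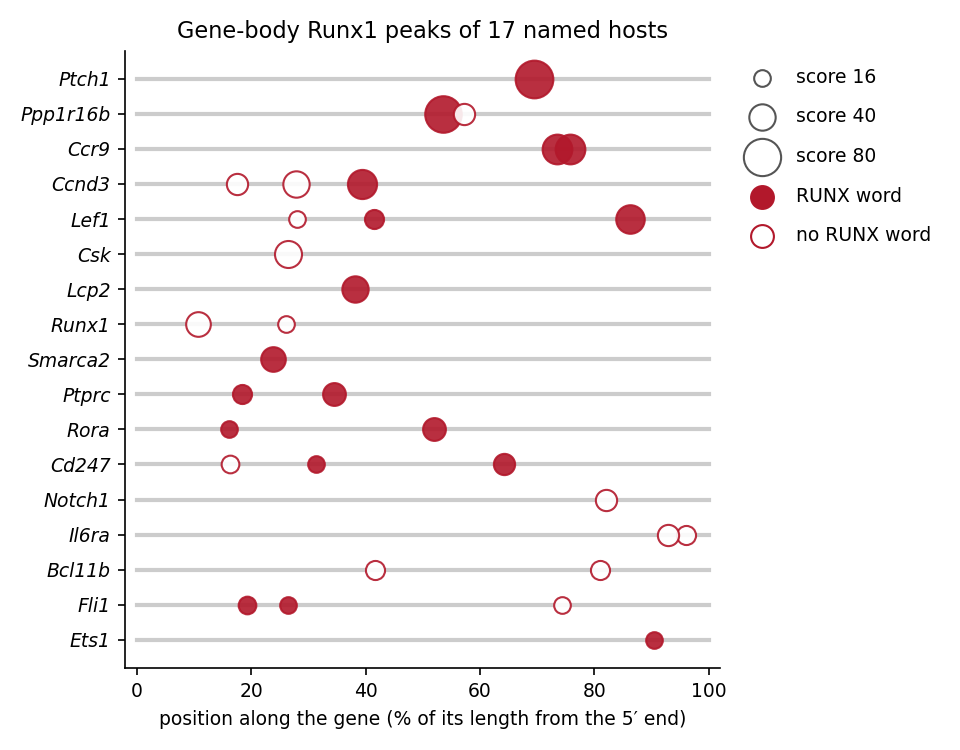
Position of the gene-body Runx1 peaks along 17 named hosts, as % of the gene from its 5′ end. The area of a circle is proportional to the score, and filled circles hold a RUNX word. The Ccr9 pair, both at a score of 51, lies at 73.5 and 75.8% of the gene, and the 3 Ccnd3 peaks (26, 40 and 49) lie between 17.6 and 39.3%.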

How the data were processed

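The authors deposited, for the Runx1 ChIP and the input library, the positions of peaks with a score per peak. Per the labels, HOMER and mm9 were used, and the methods of the study give default settings. The aligner and the meaning of the score are not given in the sources used here. Starts were converted to 1-based coordinates. Coding TSSs and gene spans came from the GENCODE annotation vM1 of NCBIM37 (mm9). The RUNX word was searched within 100 bp of the centre. Shares were compared by Fisher's exact tests and centres with flanks by exact McNemar tests, two-sided at 0.05, with Benjamini-Hochberg adjustment over 2 class comparisons or 14 words. The rule, the classes and the gene lists were chosen with earlier results of these data known. Named genes were the 10 hosts with the highest scores, those with the most peaks (up to 15), the hosts in the T-cell lists and the peaks nearest the 5 kb limit; some of these are not reported here. The rule, the word search and the tests were tested on simulated data. Comparisons of TGGTGT and TGCGGT between classes, of the base after the word, of strands with flanks, by gene length and of hosts within score classes, and alternatives on repeated centres, gene models above 2.5 Mb and 1 peak per host, were chosen after seeing the data. Tools were scipy 1.17.1 and pysam 0.24.0 under Python 3.11.15, with matplotlib 3.10.9, pandas 2.3.3 and numpy 2.4.6.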

Additional observations from a re-analysis of the deposited data

How the results depend on the processing

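No paired analysis was possible because there was 1 library of each kind, and none could be left out. A filter on soft-masked repeats was not run, since the genome sequence at hand has no masking. The share of peaks in gene bodies was 32.7% with a TSS distance of 2500 bp, 23.2% with 10000 bp, 24.9% with the TSSs of all transcripts of protein-coding genes, 24.6% among high scores and 30.3% among centres that occur once. The odds ratio of a high score against TSS-proximal peaks was 0.862, 0.886 and 0.916 under the first 3 of these and 0.974 with the upper quartile as the threshold, none of them significant. The odds ratio of the RUNX word against TSS-proximal peaks was 1.18 with 10000 bp, 1.14 with all TSSs, 1.20 with TGTGGTT and 1.13 with 1 peak per host, not significant, and 0.824, with the direction turned, with TGTGGT or TGCGGT. For hosts with several peaks against hosts with 1, the odds ratio of the word was 1.27 with 1 peak per host, and 1.04 when peaks without a high score were removed before hosts were counted, which also regroups the hosts. High scores alone gave 308 hosts, 28 with several peaks and 18 T-cell hosts, and 2500 bp left 1 word lower at the centre, GATA. With the flank 1 kb upstream 3 words were lower (GATA, Ikaros and ROR, without MYB), and with high scores the 2 lower words were GATA and ROR. The difference of the RUNX word from the flank was 11.1 to 23.8 points, the odds ratio by score 2.08 to 3.14 and that against intergenic peaks 1.33 to 2.20, past the threshold under every alternative run. Depth limits all values in a way that cannot be given, as no read counts were used here.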
